A study of Homo sapiens with 2 samples.

Results

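The genes described here repair DNA double-strand breaks by homologous recombination, unhook crosslinks between DNA strands by the Fanconi anaemia pathway, or signal the damage to the cell cycle. They were chosen by name, 33 in all, and 32 of them had a value among the 28303 genes measured; ATRIP, the partner of the kinase ATR, was not analysed here. Poly(A)-selected RNA was sequenced from HGC27 cells, a line established from a human gastric cancer, 48 h after transfection by Turbofect with pcDNA3.1-control, a control plasmid, or with pcDNA3.1-linc01133, which carries the long non-coding RNA LINC01133. Each plasmid was measured in 1 library, so no difference below has a replicate check, and every statement compares these libraries only. Levels are FPKM, fragments per kilobase of exon scaled to the depth of the library, and differences are log2 ratios of FPKM + 1, LINC01133 over control plasmid, which understate the difference of low genes. A gene was called higher from a log2 ratio of 1 upward and lower from -1 downward (2-fold in FPKM + 1), provided its mean FPKM over both libraries was at least 1. That filter passed 31 of the 32 genes, all but RAD54B.

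In homologous recombination a broken end is first trimmed to single-stranded DNA, by the MRE11-RAD50-NBN complex with RBBP8 (CtIP), and BRCA2, which PALB2 links to the BRCA1-BARD1 ubiquitin ligase, then readies it for the search for an intact copy. In the Fanconi pathway a core complex adds ubiquitin to FANCD2 and FANCI, which then clamp the DNA beside the crosslink. ATM and ATR are the kinases that sense breaks and stalled forks, and they act through CHEK2 and CHEK1. These genes are mostly used in S and G2 phase, when a sister chromatid is at hand.

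The libraries held 15666629 counted fragments in the control and 16302581 with LINC01133. LINC01133 itself had 0.0809 FPKM with the control plasmid and 1.44 with its own, from 4 and 74 fragments, a ratio of 17.8 (6.66 to 67.0). None of the 8 epithelial markers with a value passed the filter in this line (EPCAM 0.0253 and 0.292 FPKM, KRT18 listed at 0 in both), and of 6 gastric markers only GATA6 did, at 3.71 and 3.48 FPKM, while the mesenchymal marker VIM had 198 and 210 FPKM. In bulk RNA, fewer cells using a gene and less RNA per cell cannot be told apart. Intervals in brackets are 95% and exact, and they cover counting error only.

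Transcripts of these genes differ widely in base composition, which is shown first because the differences between the libraries are ordered by it. The stretches below are 120 coding bases each from 3 pairs of genes with related roles, each lying within 1 exon and chosen because its GC content is closest to that of the gene's whole coding sequence. G and C are in capitals, and sequences are from GENCODE release 29 on GRCh38. The pair of XRCC genes is XRCC2 (chr7:152649227-152649346, minus strand, exon 3, 40.8% GC) and XRCC3 (chr14:103703208-103703327, minus strand, exon 5, 63.3% GC). The pair from the Fanconi core complex is FANCL (chr2:58165747-58165866, minus strand, exon 8, 41.7% GC) and FANCG (chr9:35076745-35076864, minus strand, exon 7, 57.5% GC). The pair of DNA-dependent ATPases is RAD50 (chr5:132575781-132575900, plus strand, exon 3, 38.3% GC) and RAD54L (chr1:46260765-46260884, plus strand, exon 7, 52.5% GC). The first of each pair was called higher with LINC01133, and the second had a ratio below 1. These pairs are illustrations that differ in both GC content and ratio, and not all pairs do. The transcripts of XRCC2 and RAD51C have 42.5% and 42.2% GC, and their log2 ratios were 1.42 and 0.22.
XRCC2: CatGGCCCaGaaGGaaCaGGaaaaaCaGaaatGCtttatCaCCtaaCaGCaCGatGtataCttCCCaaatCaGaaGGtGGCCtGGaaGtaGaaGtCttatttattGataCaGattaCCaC
XRCC3: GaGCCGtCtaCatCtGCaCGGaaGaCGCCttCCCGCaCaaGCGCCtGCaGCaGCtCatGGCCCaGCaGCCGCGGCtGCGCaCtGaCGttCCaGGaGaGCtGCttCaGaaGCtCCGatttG
FANCL: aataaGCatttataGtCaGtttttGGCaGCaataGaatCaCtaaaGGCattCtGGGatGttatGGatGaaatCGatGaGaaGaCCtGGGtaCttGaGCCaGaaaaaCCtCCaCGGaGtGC
FANCG: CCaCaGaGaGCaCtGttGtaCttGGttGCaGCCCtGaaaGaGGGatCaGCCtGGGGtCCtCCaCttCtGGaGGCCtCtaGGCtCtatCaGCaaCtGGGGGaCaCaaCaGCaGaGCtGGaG
RAD50: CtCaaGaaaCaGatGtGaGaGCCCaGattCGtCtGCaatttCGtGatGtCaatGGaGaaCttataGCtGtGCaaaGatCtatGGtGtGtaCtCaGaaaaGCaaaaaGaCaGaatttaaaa
RAD54L: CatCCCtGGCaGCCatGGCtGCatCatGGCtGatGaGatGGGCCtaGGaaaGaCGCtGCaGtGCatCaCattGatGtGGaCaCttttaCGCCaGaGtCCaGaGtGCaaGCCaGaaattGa

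Among the 31 genes past the filter, 13 were called higher with LINC01133 and 0 lower. Over all 11945 genes past the filter the shares were 11.9% higher and 0.444% lower. Of the 10335 protein-coding genes among them, the type of all members, 11.7% were higher and 5 genes were lower. The log2 ratio was above 0 in 25 of the 31, against 55.4% of all genes, and the median was 0.88 against 0.10. The range ran from -0.47 for FANCE to 1.61 for NBN. By the ratio of FPKM itself, 18 of the 31 reached 2-fold, against 19.7% of all genes, and 0 were at 0.5 or less, against 1.22%. Counting error is small beside most of these differences. Of the 31 genes with an interval (all but FANCF), the ratio lay above 1 in 25, below 1 in 5 and could not be told from 1 in 1. Summed over the 32 genes, FPKM was 155 in the control and 227 with LINC01133. These were low genes in the control: 23 of the 32 lay under 4.86 FPKM, the median of all genes past the filter, and 5 lay under 1 FPKM. With LINC01133 18 of the 32 lay under the median of 6.29, and 0 under 1 FPKM.

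**Figure D1:**
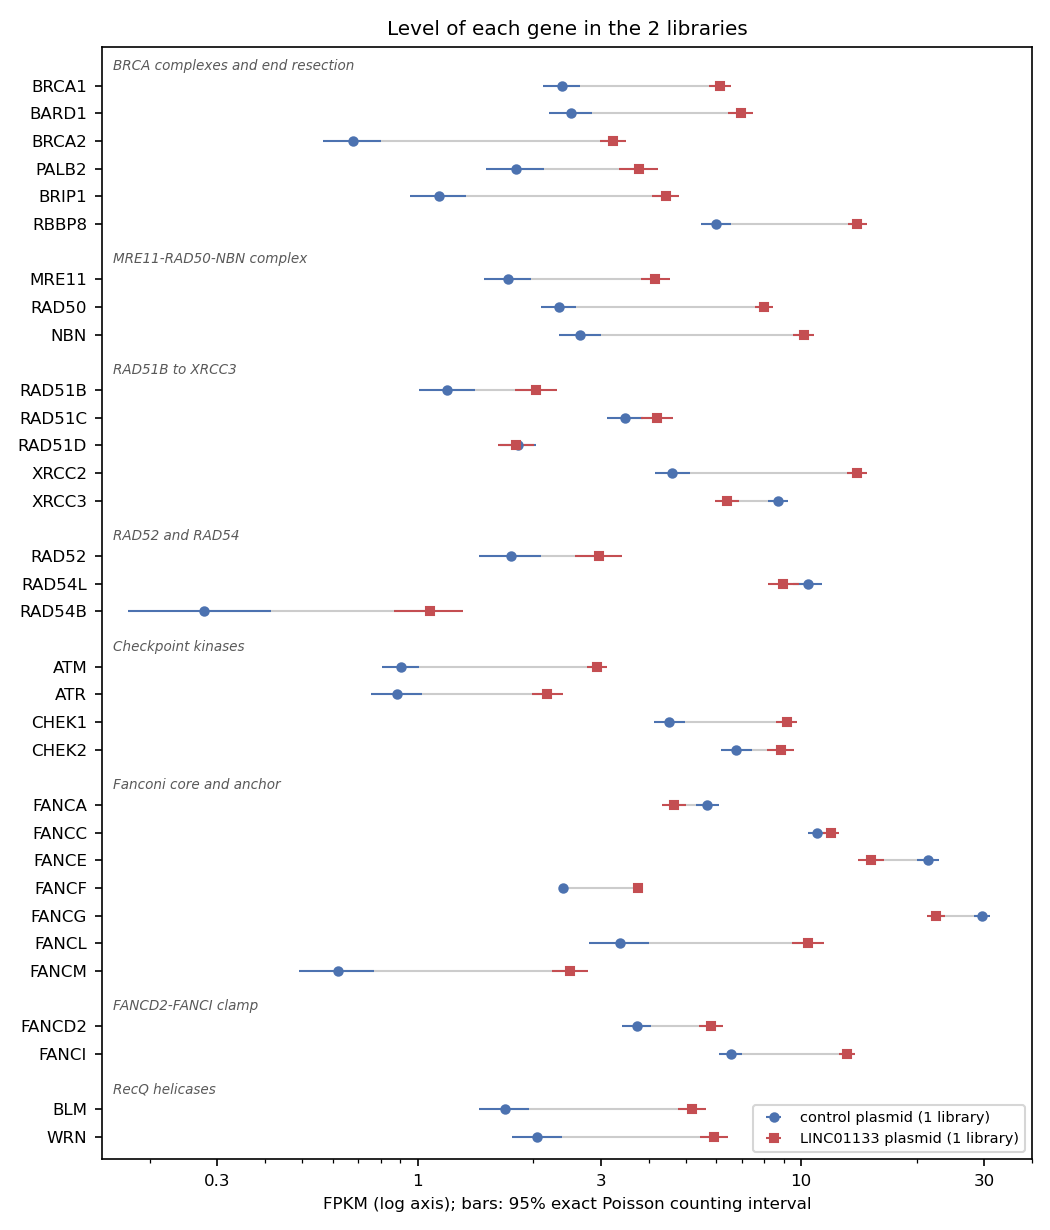
FPKM of the 32 genes on a log axis, in the control library (circles) and the LINC01133 library (squares), grouped by role; bars are exact 95% Poisson counting intervals, and FANCF has none. Genes of the BRCA complexes and of MRE11-RAD50-NBN all lie to the right in the LINC01133 library, while FANCA, FANCE, FANCG, XRCC3 and RAD54L lie to the left.

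The BRCA complexes and the end-resection factor were higher throughout. All 6 genes had a log2 ratio of at least 0.77, 5 were called higher, and their summed FPKM was 14.5 in the control and 38.5 with LINC01133. BRCA1 had 2.38 FPKM in the control and 6.13 with LINC01133, a ratio of 2.58 (2.27 to 2.94). Its obligate partner BARD1 had 2.50 and 6.96 FPKM, a ratio of 2.78 (2.39 to 3.23), so the pair stood at nearly equal levels in both libraries: BRCA1 made up 48.7% of the sum of the pair in the control and 46.9% with LINC01133. BRCA2 had the largest ratio of all 32 genes, with 0.676 and 3.23 FPKM and a ratio of 4.78 (3.95 to 5.81), from 130 and 646 fragments. BRIP1, the helicase bound to BRCA1, had 1.13 and 4.43 FPKM, a ratio of 3.90 (3.24 to 4.73). RBBP8, which starts the trimming of ends, was the most abundant of the 6, with 6.01 and 14.0 FPKM and a ratio of 2.33 (2.1 to 2.6). PALB2 had 1.80 and 3.77 FPKM, a ratio of 2.09 (1.70 to 2.59), and its log2 ratio of 0.77 lay under the threshold.

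The MRE11-RAD50-NBN complex, which binds broken ends and activates ATM, was higher in all 3 subunits, 2 of them past the threshold. NBN, the subunit that recruits ATM, had 2.65 FPKM in the control and 10.2 with LINC01133, a ratio of 3.83 (3.33 to 4.40) and the largest log2 ratio of the group, 1.61. RAD50, the ATPase that tethers the ends, had 2.34 and 8.0 FPKM, a ratio of 3.42 (3.04 to 3.86). The nuclease MRE11 had 1.72 and 4.16 FPKM, a ratio of 2.42 (2.06 to 2.86) and a log2 ratio of 0.93. The balance of the transcripts differed between the libraries, since MRE11 was 25.6% of the sum of the 3 levels in the control and 18.7% with LINC01133, and NBN 39.6% and 45.5%. In the RAD50 annotation, 79.7% of exon bases are shared with AC116366.3, a gene model on the same strand which was not analysed here, so the value of RAD50 is uncertain.

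The 5 genes RAD51B, RAD51C, RAD51D, XRCC2 and XRCC3, whose proteins form complexes that assist strand exchange, split. XRCC2 was called higher, with 4.62 FPKM in the control and 14.0 with LINC01133, a ratio of 3.03 (2.69 to 3.43). RAD51B had 1.20 and 2.03 FPKM, a ratio of 1.70 (1.38 to 2.11), and RAD51C 3.48 and 4.22 FPKM, a ratio of 1.21 (1.05 to 1.40). RAD51D could not be told from equal, at 1.83 and 1.81 FPKM and a ratio of 0.988 (0.845 to 1.15). XRCC3 was the other way, at 8.72 and 6.41 FPKM, a ratio of 0.736 (0.670 to 0.808). Within the complex of RAD51B, RAD51C, RAD51D and XRCC2, the share of XRCC2 in the summed FPKM was 41.5% in the control and 63.5% with LINC01133, and that of RAD51C 31.3% and 19.1%. The order of XRCC2 and XRCC3 turned: the level of XRCC2 was 0.530 times that of XRCC3 in the control and 2.18 times it with LINC01133. The XRCC3 value is uncertain, because 76.7% of its exon bases lie opposite KLC1, a kinesin light chain (1.66 and 2.2 FPKM), and the strand setting of the counting is not given in the sources used here.

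The genes that anneal or exchange strands were mostly within 2-fold. RAD52, a strand-annealing protein, had 1.75 FPKM in the control and 2.97 with LINC01133, a ratio of 1.70 (1.34 to 2.15). RAD54L, a DNA motor of strand exchange, had 10.4 and 8.99 FPKM, a ratio of 0.865 (0.763 to 0.982), and 25.1% of its exon bases lie opposite exons of LRRC41 (16.3 and 11.9 FPKM). Its relative RAD54B was the lowest of the 32 genes, with 0.276 and 1.07 FPKM from 23 and 93 fragments. The RAD54B ratio of 3.89 (2.44 to 6.43) stands on low counts, and 59.1% of its exon bases are shared with FSBP on the same strand. The RecQ helicases, which unwind recombination intermediates, were both called higher. BLM had 1.69 and 5.20 FPKM, a ratio of 3.08 (2.59 to 3.68), and WRN 2.05 and 5.92 FPKM, a ratio of 2.89 (2.44 to 3.44).

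All 4 measured checkpoint kinases had a higher level with LINC01133, and 1 was called. ATM had 0.904 FPKM in the control and 2.94 with LINC01133, a ratio of 3.25 (2.87 to 3.70). ATR had 0.884 and 2.18 FPKM, a ratio of 2.47 (2.06 to 2.96), with a log2 ratio of 0.76. The downstream kinases were more abundant and differed less: CHEK1 had 4.54 and 9.18 FPKM, a ratio of 2.02 (1.81 to 2.26), and CHEK2 6.78 and 8.84 FPKM, a ratio of 1.30 (1.15 to 1.48). NPAT, the gene opposite ATM, where at most 1.5% of the exon bases of ATM lie in exons of other genes, had 1.10 and 3.77 FPKM.

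The Fanconi core complex and its DNA anchor FANCM were divided by subunit, with 2 of 7 called higher. FANCL, the ubiquitin ligase of the core, had 3.36 FPKM in the control and 10.4 with LINC01133, a ratio of 3.10 (2.54 to 3.82). FANCM, the DNA translocase that anchors the core on chromatin, had 0.618 and 2.50 FPKM, a ratio of 4.04 (3.17 to 5.21). FANCF, an adaptor encoded by 1 exon, had 2.39 and 3.75 FPKM, a ratio of 1.57 with no interval. FANCC was close to equal, at 11 and 12 FPKM and a ratio of 1.09 (1.02 to 1.17). The other 3 subunits had ratios below 1 with intervals that leave out 1. FANCE, which binds FANCD2, had 21.4 and 15.2 FPKM, a ratio of 0.709 (0.639 to 0.787). FANCG, a scaffold of the core, had 29.6 and 22.4 FPKM, a ratio of 0.757 (0.704 to 0.814). FANCA, its partner, had 5.70 and 4.66 FPKM, a ratio of 0.817 (0.740 to 0.902), and 23.6% of its exon bases lie opposite exons of ZNF276, a zinc-finger gene with 2.74 and 3.01 FPKM.

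FANCG and FANCE were the most abundant of all 32 genes in both libraries, and the spread of levels within the core was narrower with LINC01133. The level of FANCG was 8.82 times that of FANCL in the control and 2.15 times with LINC01133, and that of FANCE 34.7 times and 6.08 times that of FANCM. FANCA and FANCG, which bind each other, kept nearly the same proportion, FANCA being 16.1% and 17.2% of their sum. The substrates of the core were both higher and under the threshold. FANCI had 6.55 and 13.2 FPKM, a ratio of 2.01 (1.85 to 2.19) and a log2 ratio of 0.91, and FANCD2 3.73 and 5.83 FPKM, a ratio of 1.56 (1.40 to 1.75). FANCD2 was 36.3% of the sum of the pair in the control and 30.6% with LINC01133.

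The differences followed the GC content of the transcript. GC content here is that of the longest coding transcript, and it ranged over the 32 genes from 36.3% for BRCA2 to 62.5% for XRCC3, with 26 of the 32 under 49%, the median of all genes past the filter. Among the 9 past the filter with under 40% GC, 8 were called higher, the exception being MRE11, against 54.5% of all genes in that range. Of the 12 from 40% to under 45%, 5 were called higher (BRCA1, RBBP8, RAD50, XRCC2 and BLM), against 15% of all genes there. Of the 10 at 45% or more, 0 were called, against 1.19%. The median log2 ratio in these ranges was 1.18, 0.89 and -0.10 for the members, and 1.06, 0.62 and -0.17 for all genes. As a description across 31 genes that share the same 2 libraries, Spearman's rho between GC content and log2 ratio was -0.851, and over 11913 genes -0.801. The rho with transcript length was 0.390 (0.275 over all genes), and with the level in the control -0.492 (-0.507).

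**Figure D2:**
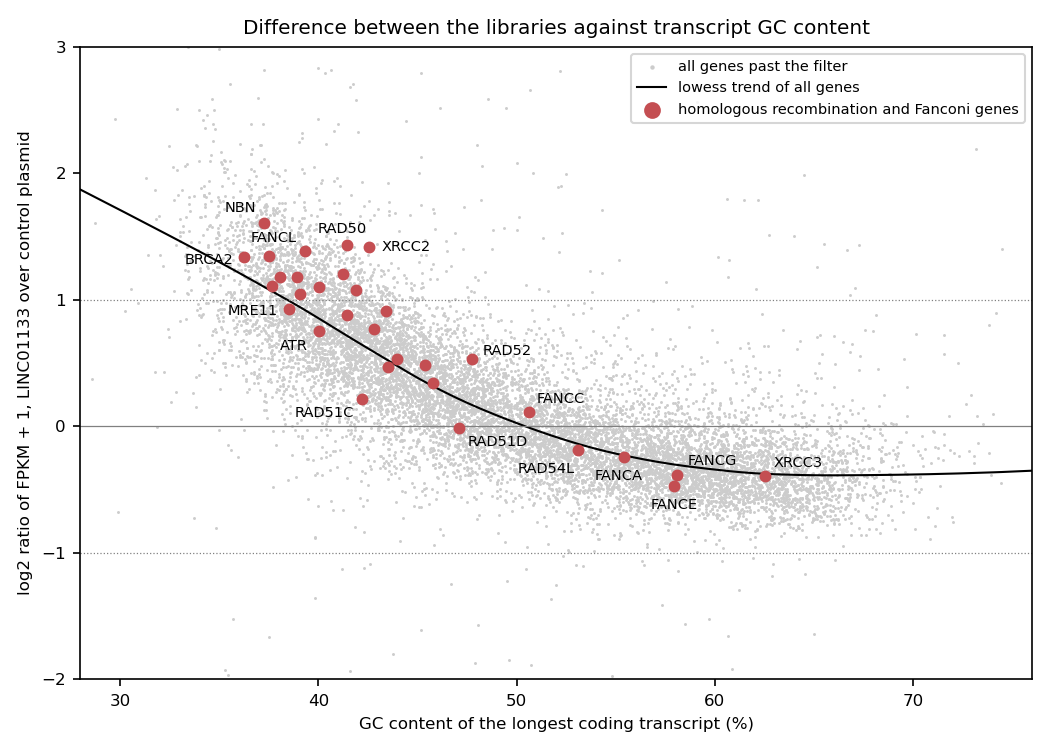
Log2 ratio of FPKM + 1 against the GC content of the longest coding transcript, for 11913 genes past the filter (grey, 22 of them outside the axes) with their lowess trend (line) and for the 31 genes described here (red); dotted lines mark 2-fold. RAD50 and XRCC2 lie above the trend, RAD51C lies below it, and XRCC3, FANCG, FANCE and FANCA lie near it at high GC content.

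With lowess trends on GC content and length over all genes subtracted, none of the 31 was at least 2-fold higher or lower, against 1.7% and 0.764% of all genes. Of the 10335 protein-coding genes past the filter, the type of all members, 81 were higher and 11 lower on this scale. At such shares few or none of 31 genes would be called. The median of the 31 became 0.20, against 0.10 over all genes, and 26 of the 31 were above 0, against 64.2%. The overall median was kept, so a gene on the trends lies near 0.10 and not at 0. Above the median of all genes were 21 of the 31, against 5956 of 11913 genes. XRCC2 stood furthest above, at 0.92, followed by RAD50 at 0.75, FANCL at 0.65, NBN at 0.58 and BLM at 0.53. BRCA2, with the largest ratio as deposited, was at 0.18, and ATM at 0.14. The sign turned in 7 of the 31. FANCA (0.04), FANCG (0.05), RAD54L (0.06) and XRCC3 (0.10) went from below 0 to above it, and MRE11 (-0.02), ATR (-0.06) and RAD51C (-0.29) from above to below. FANCA, FANCG and RAD54L stayed under the median of all genes. RAD51C was the lowest, followed by RAD51D at -0.19, ATR, and FANCE at -0.03. RAD52 was at 0.49, almost as before (0.53). By role the median was 0.58 for MRE11-RAD50-NBN, 0.41 for the RecQ helicases, 0.29 for the BRCA complexes, 0.28 for FANCD2 and FANCI, 0.27 for RAD52 and RAD54L, 0.16 for the checkpoint kinases, 0.09 for the Fanconi core and 0.07 for the RAD51B to XRCC3 genes, over 2 to 7 genes each. The part of base composition in the differences was not tested.

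**Figure D3:**
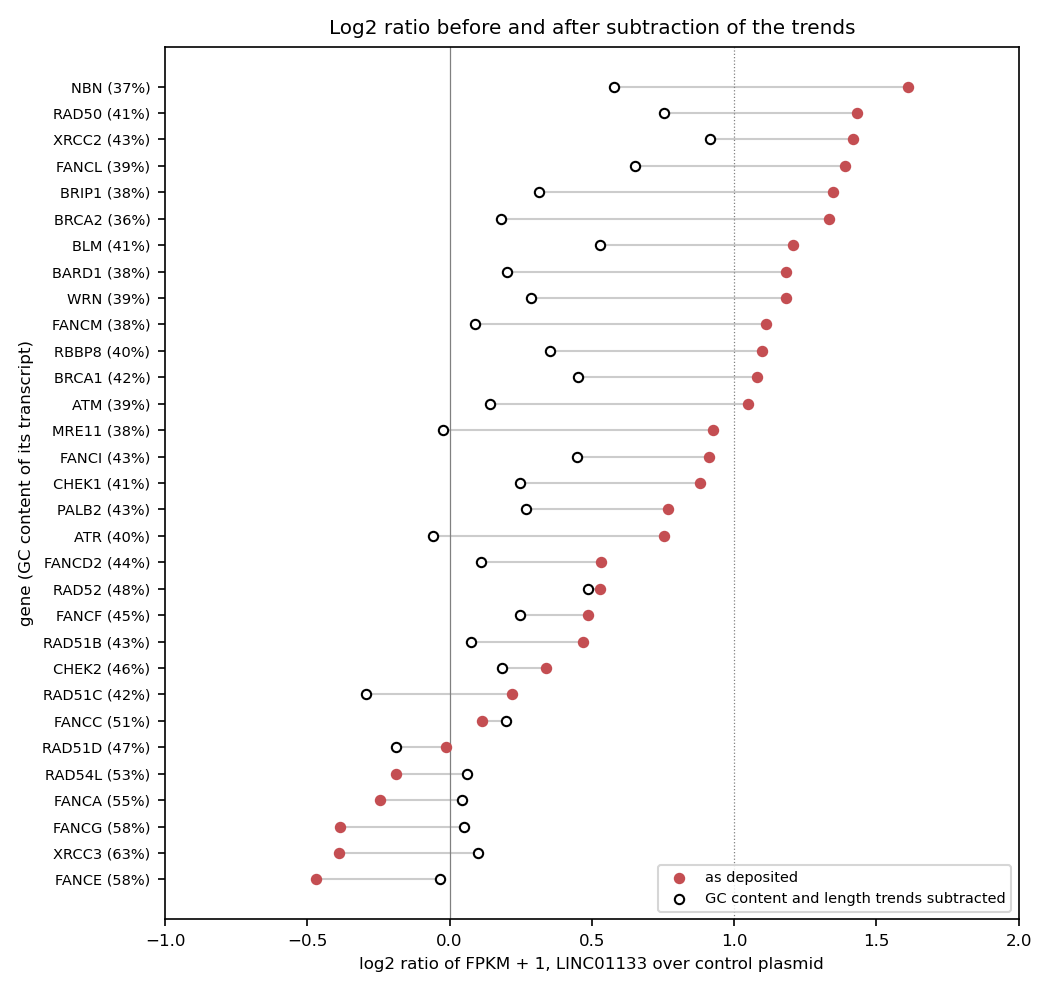
Log2 ratio of FPKM + 1 of the 31 genes past the filter, as deposited (filled) and after subtraction of the trends of all genes on GC content and length (open), with the GC content of the transcript in brackets; the dotted line marks 2-fold. The 13 genes beyond the dotted line as deposited all lie short of it after subtraction, and the lowest 5 move toward 0 or past it.

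The members are long genes of many exons: the median coding length was 2297 bases and the median exon number 16, against 1368 bases and 8 exons over all genes. In several members the coding sequence and the whole transcript differ in GC content. The coding sequence of FANCF has 59.4% GC and its transcript 45.4%, that of RAD51D 57.4% against 47.1%, and that of RAD52 53.7% against 47.7%, while BARD1 has 43.9% in the coding sequence and 38.0% in the transcript. FANCF and RAD52 had log2 ratios of 0.49 and 0.53, above those of the members whose transcripts have more than 50% GC, and RAD51D was at -0.01. Across the 31 genes, rho of the log2 ratio with the GC content of the coding sequence was -0.858.

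RefSeq promoters on GRCh38.p14, from 250 bases before to 50 after the start, were matched for 28 of the 32, with a median of 64.3% GC (32.3% to 76%), against 58.3% over 27305 promoters. The lowest were RAD51B at 32.3% and FANCM at 48%. A single RefSeq window was used per gene, and it need not hold the start used in these cells. The RAD51B window (chr14:67823291-67823590, plus strand) lies inside the GENCODE gene model, which starts at 67819779. Its 32.3% may therefore not be that of the promoter, and it counts in the range and in rho. Other windows also lie inside their gene models, and those of RBBP8, FANCC and RAD52 lie further from the outermost start than that of RAD51B. The RBBP8 window starts at 22933078 and its model at 22798261. On the minus strand, the FANCC window ends at 95317959 and its model at 95426796. These windows count in rho and in the shares of strings below. Over these 28 genes rho of the log2 ratio with promoter GC content was -0.263, and rho between promoter and transcript GC content was 0.325. The promoters of XRCC2 (chr7:152676092-152676391, minus strand, 65.3% GC) and XRCC3 (chr14:103715402-103715701, minus strand, 64.3% GC) are shown because they are alike in composition while the transcripts and the log2 ratios (1.42 and -0.39) are far apart. This pair is an illustration chosen for that contrast, and the part of promoter or transcript composition in it was not tested. Capitals mark a match to an E2F string.
XRCC2 promoter: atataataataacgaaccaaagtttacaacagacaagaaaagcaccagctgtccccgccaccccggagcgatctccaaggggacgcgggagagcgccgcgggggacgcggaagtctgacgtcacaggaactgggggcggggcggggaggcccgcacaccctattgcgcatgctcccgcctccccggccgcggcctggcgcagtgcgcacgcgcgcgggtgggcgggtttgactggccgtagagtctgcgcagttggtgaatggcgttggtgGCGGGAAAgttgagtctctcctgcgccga
XRCC3 promoter: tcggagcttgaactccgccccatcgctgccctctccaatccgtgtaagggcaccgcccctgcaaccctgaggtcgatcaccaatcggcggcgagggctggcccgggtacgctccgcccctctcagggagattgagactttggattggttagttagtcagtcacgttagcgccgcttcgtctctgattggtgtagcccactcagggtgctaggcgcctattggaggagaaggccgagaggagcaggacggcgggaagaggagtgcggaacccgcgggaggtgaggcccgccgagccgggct
E2F factors drive genes of S phase, and strings of their site (TTTCCCGC, TTTGGCGC, TTTCGCGC or TTTGCCGC, either strand) were found in 4 of the 28, namely FANCA, FANCC, FANCD2 and XRCC2, or 14.3%, against 3.33% of all promoters. Of these 4 genes XRCC2 was called higher. An E2F string was thus in 1 of the 11 genes called higher and in 3 of the 17 others. The median log2 ratio was 0.32 over the 4 genes with a string and 0.82 over the 24 without. The ETS string CCGGAAG was in 9 of 28 (32.1%, against 10.7%), the CCAAT box in 12 (42.9%, against 35.7%) and the cell-cycle element TTTGAA in 3 (10.7%, against 15.4%), each on either strand. Matches of different strings overlapped in 0 of the 28 promoters. The 27305 promoters were not limited to protein-coding genes or to genes past the filter. Their median GC content was lower (58.3%, against 64.3% for the members), and the shares were not matched for it.

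Of the neighbouring genes that start within 1000 bases upstream of a member on the opposite strand, 6 passed the filter and 1 was called higher. Starts here, also those of BRCA1 and RAD52, are the outermost ends of the gene models. For RAD52 on the minus strand that end is at 990053, while its promoter window above ends at 949944. ERC1 is therefore not beside that window. Which start is used in these cells was not examined. FKBP3, a prolyl isomerase whose start lies 621 bases from that of FANCM, had 17.6 and 38.3 FPKM, a ratio of 2.18 (1.98 to 2.40). NBR1, an autophagy receptor beside BRCA1, had 6.11 and 8.12 FPKM, a ratio of 1.33 (1.21 to 1.46), and DCTN5, a dynactin subunit 82 bases from PALB2, 7.95 and 8.97 FPKM, a ratio of 1.13 (1.06 to 1.21). ERC1 beside RAD52 had 6.25 and 7.97 FPKM, CIDECP1 beside FANCD2 1.88 and 1.63, and ZFYVE21 beside XRCC3 5.26 and 4.77. In all 6 pairs the gene with the lower transcript GC content had the higher log2 ratio. No share over other gene pairs was computed, and rho of GC content with log2 ratio was -0.801 over all genes. Of the pairs whose neighbour was under the filter, only BARD1 and SNHG31 went the other way.

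Other genes of the same pathways were taken from lists, and 0 of them were called lower. Of 26 further recombination genes past the filter 5 were higher (19.2%, against 11.9% of all genes), with a median of 0.04. RMI1, a partner of BLM, had 4.59 FPKM in the control and 17.9 with LINC01133, a ratio of 3.90 (3.40 to 4.50). The Holliday junction nuclease GEN1 had 0.524 and 3.05 FPKM, RAD51AP1, an accessory factor of strand exchange, 5.09 and 15.1, and the resection nuclease DNA2 3.86 and 11.4. The fifth was RECQL, a RecQ helicase, with 3.16 and 7.96 FPKM.

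Of 16 further Fanconi genes 2 were higher (12.5%, near the 11.9% of all genes), with a median of 0.18. The log2 ratio was above 0 in 11 of them and below 0 in 5. USP1, which removes ubiquitin from FANCD2, had 6.93 FPKM in the control and 29.9 with LINC01133, a ratio of 4.31 (3.90 to 4.78), and stayed above 2-fold with the trends subtracted (1.28). FANCB, a core subunit, had 0.536 and 2.25 FPKM, a ratio of 4.20 (2.75 to 6.64), and went from 1.08 to 0.05. UBE2T, the ubiquitin-conjugating enzyme that works with FANCL, was abundant and close to equal, at 87.3 and 90.9 FPKM; it was named after its value was seen.

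Of 29 further checkpoint and break-signalling genes 7 were higher (24.1%, against 11.9% of all genes), with a median of 0.29. ETAA1, an activator of ATR, had the largest difference, with 1.54 FPKM in the control and 12.3 with LINC01133, a ratio of 8.0 (6.81 to 9.44). Its log2 ratio was 2.39, and 1.33 after subtraction. BRCC3, a deubiquitinase of the BRCA1-A complex, had 2.55 and 11.1 FPKM (1.77, then 1.13), the clamp loader RAD17 1.47 and 7.14 (1.72, then 0.98), and RIF1, which restrains end resection, 0.580 and 3.90 (1.63, then 0.57). ETAA1, BRCC3 and USP1 were above 2-fold on both scales, as were PMS1 and DBF4 of the lists that follow. None of the 31 members was, which is near the share over all genes, 1.7% higher with the trends subtracted.

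Lists of neighbouring processes had lower medians as deposited. Of 12 end-joining genes past the filter 1 was called higher (8.33%, against 11.9% of all genes), XRCC4 (2.19 and 5.96 FPKM), with a median of -0.01. Of 15 mismatch repair genes 3 were (20%), with a median of 0.30, led by PMS1 (1.41 and 7.89 FPKM), with RFC1 (4.78 and 11.1) and RFC3 (14.7 and 30.8). Of 48 replication and S-phase genes, the program with which recombination genes are usually expressed, 6 were higher (12.5%, near the share of all genes), with a median of 0.27. Among them were the kinase subunits DBF4 (3.75 and 15.4 FPKM) and CDC7 (6.91 and 20.5) and the cyclin CCNE2 (0.465 and 2.16). The median GC content was 42.2% for the members past the filter, 48.6% for end joining, 45% for mismatch repair and 45.7% for replication. With the trends subtracted the medians were 0.20 for the members, 0.12, 0.10 and 0.12 for these lists, and 0.10, 0.06 and 0.22 for the further recombination, Fanconi and checkpoint genes. The lists share genes with each other, and none shares a gene with the members. PCNA, LIG1, POLD1, RFC1, RFC2, RFC3, RFC4 and RFC5 are in both the mismatch repair and the replication list. RFC1 and RFC3 are therefore counted as higher in both, and the 2 lists are not separate readouts.

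**Figure D4:**
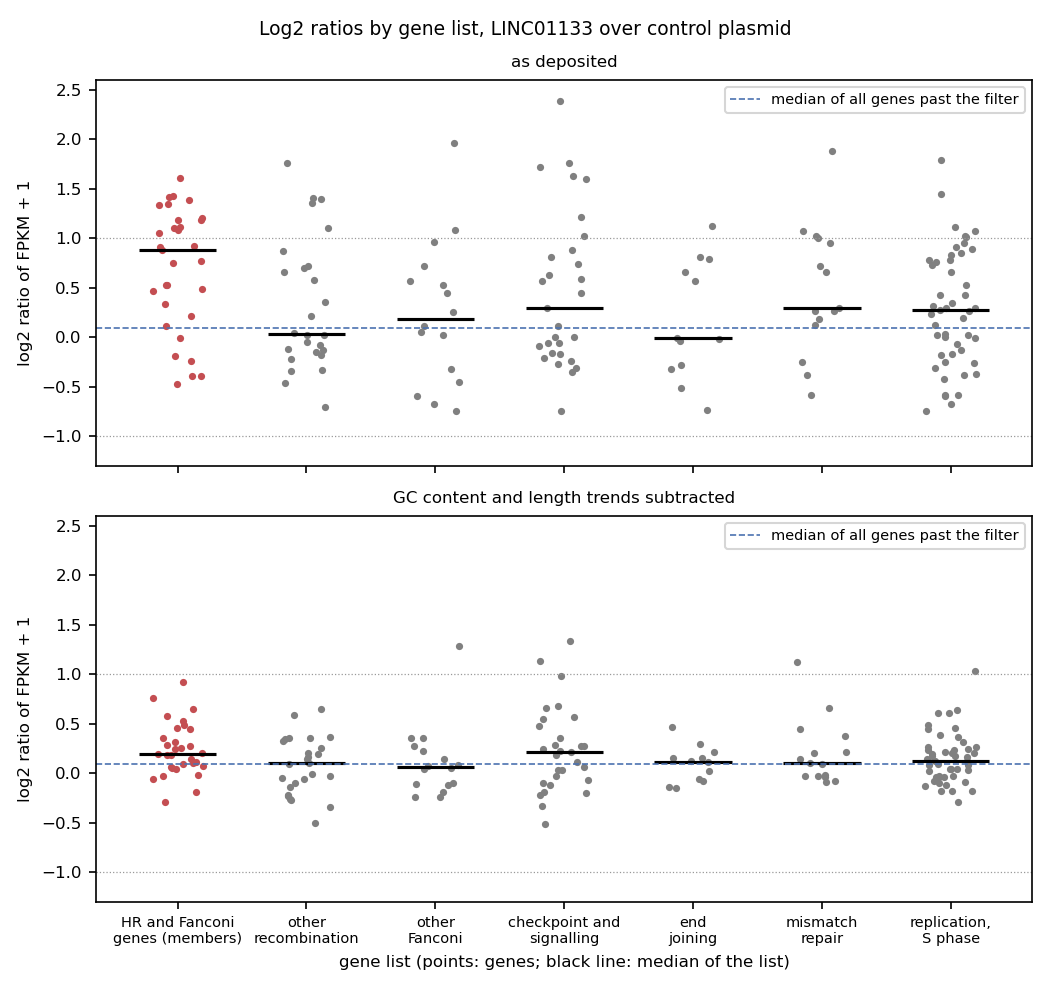
Log2 ratio of FPKM + 1 of each gene past the filter, by list, as deposited (top) and after subtraction of the trends (bottom); black lines are list medians, the dashed line the median of all genes, and dotted lines 2-fold. The members' median of 0.88 lies above those of the other lists in the top panel, and the medians lie between 0.06 and 0.22 in the bottom panel.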

How the data were processed

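For each library the authors deposited a normalized level for every gene, read here as FPKM (counted fragments divided by exon length and depth), although the labels name no unit. It was read so because, times the merged exon length in GENCODE 29, 92.9% (control) and 93.2% (LINC01133) of those above 0 were whole multiples of 1 step, within 0.02 fragments. The steps gave depths and fragments. For 6 members an exon length within 30% of that of release 29 gave whole fragments in both libraries (within 0.0001) and was used; FANCF had none. Bowtie2 2.2.3, HISAT2 2.1.0, HTSeq 0.6.0 and GRCh38 were used, per the submitters' processing notes; their roles and the annotation release are not given in the sources used here.

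Symbols were matched by gene identifier. Log2 ratios used a pseudocount of 1. Intervals are Poisson for levels and Clopper-Pearson for ratios; amplified fragments are not independent molecules. Trends were lowess fits (span 0.3, statsmodels 0.14.6) over genes past the filter, on GC content and then log2 length, with the overall median kept. Calculations used Python 3.11.15 and were tested on simulated data. No p-value was computed, since each group held 1 library. Named genes were all members, LINC01133, neighbouring genes past the filter and, of each other list, the genes beyond 2-fold or the 4 most different. The members and lists were chosen with earlier results of these data known.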

Additional observations from a re-analysis of the deposited data

How the results depend on the processing

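No paired analysis was possible because there was only 1 library in each group. The ratio of FPKM itself and the removal of members with shared exons were chosen after the data were seen. The 13 members called higher became 5 of 14 at a mean FPKM of at least 5, 6 by upper-quartile scaling (BRCA2, BRIP1, RAD50, NBN, XRCC2 and FANCL) and 0 once the trends on GC content and length were taken off. They were 9 by the trimmed mean of M values and by the median of ratios, which shift all log2 ratios of FPKM by 0.21 (upper quartile 0.42), 12 of 27 without the members that share 20% or more of their exon bases, 13 without a filter, 17 with a pseudocount of 0.1, and 18 at 1.5-fold or by the ratio of FPKM itself. In each of these settings 0 members were lower. The median of 0.88 became 1.03 with a pseudocount of 0.1, 0.61 under the stricter filter, 0.70 by the trimmed mean of M values and by the median of ratios, 0.52 by the upper quartile and 0.20 with the trends subtracted. FANCC turned below 0 by all 3 scalings, and RAD51C and CHEK2 by the upper quartile. The 5 further recombination genes became 0 with the trends subtracted, the 2 Fanconi genes 1 by the trimmed mean of M values and 1 with the trends subtracted, and the 7 checkpoint genes 2 with the trends subtracted. The cause of these moves was not tested. Depth limits RAD54B most, with 23 fragments in the control.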
